A study of Mus musculus with 12 samples.

Results

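The glucocorticoid receptor, encoded by *Nr3c1*, and 9 genes that it is known to induce were examined in livers of term mouse fetuses with and without PPARα. The induced genes were *Fkbp5*, *Tsc22d3*, *Klf9*, *Sgk1*, *Zbtb16*, *Dusp1*, *Errfi1*, *Mt1* and *Mt2*. They were taken from a fixed list of 10 names, matched by symbol to probesets with exactly 1 gene symbol, and each matched 1 probeset, so that 10 of the 19938 genes measured are described.

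The receptor is a transcription factor that sits in the cytoplasm with heat shock protein chaperones until it binds cortisol or corticosterone. It then enters the nucleus, binds palindromic response elements as a dimer and raises the transcription of nearby genes, while it lowers many inflammatory genes. In the liver it drives amino acid breakdown and glucose production, and rising glucocorticoids before birth prepare the fetal liver for life outside the uterus. *Ppara*, the gene deleted here, is itself a glucocorticoid-induced gene, and the design allows one to ask how the receptor and its other targets stood in livers that lacked it.

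RNA was measured on Affymetrix Mouse Gene ST arrays in whole livers from 6 *Ppara*-/- and 6 *Ppara*+/+ fetuses at embryonic day E19.5. Males and females heterozygous for *Ppara* were mated, and fetuses were delivered by caesarean section, so that both genotypes had mothers of 1 genotype. The deletion is carried in the germline and is present in every cell of the fetus. The labels give the strain as SV129, the study's methods as C57BL/6. According to the methods the RNA of each genotype came from 3 litters, which the labels do not identify, so some livers shared a litter and the p-values do not allow for that. All values are RMA signals on the log2 scale, and all differences are *Ppara*-/- minus *Ppara*+/+. In whole liver RNA, fewer cells of a type and less RNA per cell cannot be told apart.

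*Ppara* signals were between 9.66 and 9.94 in the 6 *Ppara*-/- livers and between 10.71 and 10.95 in the 6 *Ppara*+/+ livers. The genotypes did not overlap, and the difference was -1.01 ± 0.06 (SE), with an adjusted p of 3.57e-08 in limma. Mouse 1 of the *Ppara*-/- group had a *Ppara* signal of 9.84, among the other *Ppara*-/- livers. Over all genes its array nevertheless correlated slightly better with the *Ppara*+/+ arrays (mean r = 0.9950) than with those of its own genotype (mean r = 0.9945). The same held for *Ppara*+/+ mouse 6, at 0.9947 with its own genotype and 0.9954 with the other. Between genotypes 1443 genes passed an adjusted p of 0.05, and 2521 did so without *Ppara*-/- mouse 1 (12.6%). For the members and the gene lists the values or counts without this liver are therefore given as well. The liver was picked because of its values. Leaving out a liver that resembles the other genotype tends to widen differences and lower p-values, so those values and counts are a description. Of the 9 cell type marker lists, hepatocyte, erythroid, granulocyte, megakaryocyte, endothelial and lymphocyte markers had 0 of 46 genes called in limma, 8 of them with an unadjusted p under 0.05. When *Ppara*-/- mouse 1 was left out, 2 endothelial markers, *Clec4g* and *Tek*, passed, both lower. *Dlk1*, a hepatoblast marker, rose by 0.42 ± 0.11 (SE), *Csf1r*, a macrophage receptor, rose by 0.23 ± 0.05 (SE), each as the only gene called of its list. The medians of these lists, of 7 hepatoblast and biliary and 11 macrophage markers, were both -0.03, and 1 and 3 genes of them passed when *Ppara*-/- mouse 1 was left out. Of 8 stellate and fibroblast markers, with a median of 0.02, *Reln* rose by 0.16 ± 0.04 (SE) and *Des* fell by 0.39 ± 0.09 (SE). The mean level of the 9 measured hepatocyte markers lay between 12.79 and 12.84 in *Ppara*-/- livers and between 12.81 and 12.86 in *Ppara*+/+ livers. The part of these markers in the results that follow was not tested.

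Promoter windows from RefSeq (mouse build GRCm38.p6, 250 bases before to 50 bases after an annotated start) were read for 8 of the 10 genes, 16 windows in all. They were searched on both strands for the receptor's half-site AGAACA, for its palindrome (AGAACA, 3 bases, TGTTCT) and for the metal response core (TGCACNC or TGCGCNC) through which zinc acts on metallothionein genes. The half-site was found in 18.97% of all 32851 mouse windows, the metal response core in 25.7%, and the palindrome without a mismatch in 3 windows. One of those 3 was the fifth of 6 *Sgk1* windows, on the forward strand at chr10:21993640-21993939, where the palindrome lay from base -189 to base -175 relative to the start. This window is shown because it alone of the 16 searched held the receptor's full motif, and capitals mark that motif and a further half-site.
Sgk1: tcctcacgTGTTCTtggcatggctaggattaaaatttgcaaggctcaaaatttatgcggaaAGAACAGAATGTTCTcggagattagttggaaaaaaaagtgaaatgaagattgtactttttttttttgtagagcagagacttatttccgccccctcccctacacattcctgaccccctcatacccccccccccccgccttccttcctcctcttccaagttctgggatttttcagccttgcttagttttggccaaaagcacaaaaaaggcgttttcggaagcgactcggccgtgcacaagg
*Mt1* at chr8:94178839-94179138 and *Mt2* at chr8:94172368-94172667, both on the forward strand, lie next to each other and are shown because their signals moved together from liver to liver. Capitals mark the metal response cores, 3 in the *Mt1* window and 4 in that of *Mt2*. Windows with 4 or more made up 0.5175% of all windows. Neither the *Mt1* nor the *Mt2* window held a half-site, and the *Sgk1* window printed above held no core.
Mt1: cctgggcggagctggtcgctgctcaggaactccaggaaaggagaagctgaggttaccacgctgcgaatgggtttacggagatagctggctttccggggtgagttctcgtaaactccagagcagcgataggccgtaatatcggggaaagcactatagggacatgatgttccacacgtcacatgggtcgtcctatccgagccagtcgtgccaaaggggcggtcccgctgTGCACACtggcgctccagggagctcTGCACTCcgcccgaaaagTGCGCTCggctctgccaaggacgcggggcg
Mt2: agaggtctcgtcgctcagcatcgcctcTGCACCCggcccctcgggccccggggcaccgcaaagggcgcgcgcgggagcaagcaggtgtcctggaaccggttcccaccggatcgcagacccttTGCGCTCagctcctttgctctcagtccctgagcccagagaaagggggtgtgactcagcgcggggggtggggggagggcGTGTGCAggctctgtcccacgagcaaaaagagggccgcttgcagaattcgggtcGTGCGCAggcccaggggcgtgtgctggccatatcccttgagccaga
Of the other *Sgk1* windows 2 held a half-site, 1 a core and 1 the palindrome with 2 mismatches, a match of up to 2 mismatches being found in 1.845% of all windows. The windows of *Fkbp5*, *Klf9* and *Errfi1* held neither motif. One of the 3 *Tsc22d3* windows held a half-site, and the *Dusp1* window held 1 metal response core. A match describes letters in a window and does not show that a factor binds there.

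The receptor and its targets did not move in 1 direction between the genotypes. *Nr3c1* and *Dusp1* rose, *Klf9* and *Errfi1* fell, and the other 6 did not pass the test. Thus 4 of 10 genes passed an adjusted p of 0.05 in limma, against 7.24% of all genes tested. By direction, 2 of 10 rose, against 3.42% of all genes, and 2 of 10 fell, against 3.82%. The genes were chosen with earlier results of these data known, so these counts are a description. For 0 of the 10 genes did the 2 sets of 6 livers stand wholly apart, which they did for 3.59% of all genes. Without *Ppara*-/- mouse 1 they stood apart for 3 of 10, *Nr3c1*, *Klf9* and *Errfi1*, against 9.31% of all genes.

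*Nr3c1*, the receptor itself, had log2 signals of 9.57, 9.88, 9.95, 9.93, 9.87 and 9.87 in *Ppara*-/- mice 1 to 6 and of 9.48, 9.50, 9.53, 9.59, 9.58 and 9.61 in *Ppara*+/+ mice 1 to 6. All *Ppara*-/- livers but that of mouse 1 were above every *Ppara*+/+ liver, and mouse 1 lay inside the *Ppara*+/+ range. The means were 9.85 ± 0.14 (SD, n = 6) and 9.55 ± 0.05 (SD, n = 6). The difference of 0.30 ± 0.06 (SE), or 1.23-fold, had an adjusted p of 0.00826. Without mouse 1 it was 0.35 ± 0.04 (SE), with an adjusted p of 9.69e-05. The highest adjusted p with any 1 liver left out was 0.0243. The study's own text reports the opposite direction, with significantly less *Nr3c1* mRNA in developing *Ppara*-/- livers. According to its methods such mRNA levels were measured by real-time PCR against a reference gene, and they were followed over several ages. The array values here are of 1 age. The text does not say at which of the ages the genotypes differed, and the reason for the disagreement was not tested.

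**Figure D1:**
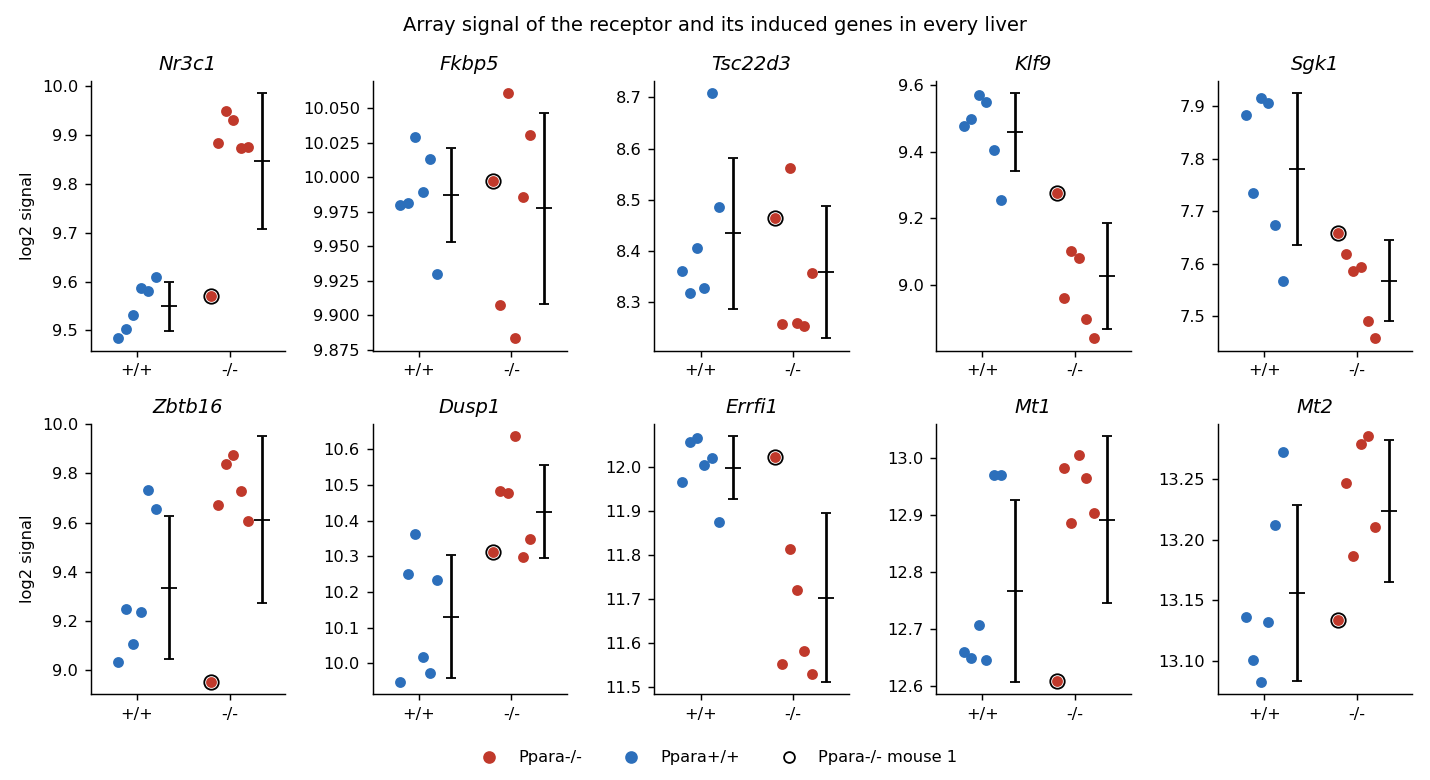
Log2 array signal (vertical axes, each with its own range) of the 10 genes in 6 *Ppara*+/+ and 6 *Ppara*-/- livers, with 1 point per liver, the mean and SD beside them, and a ring around *Ppara*-/- mouse 1. The 5 other *Ppara*-/- livers lie above all *Ppara*+/+ livers for *Nr3c1* and below them for *Klf9* and *Errfi1*, while the genotypes are mixed for *Fkbp5*, *Tsc22d3* and *Mt2*.

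A feedback inhibitor of the receptor and a mediator of its anti-inflammatory action did not pass the test. *Fkbp5*, a cochaperone that lowers the receptor's affinity for hormone and is among its most regular targets, had signals of 9.997, 9.91, 10.06, 9.88, 9.99 and 10.03 in *Ppara*-/- mice and of 9.98, 9.98, 10.03, 9.99, 10.01 and 9.93 in *Ppara*+/+ mice. The livers overlapped over nearly the whole range, and the difference was -0.01 ± 0.04 (SE), with an adjusted p of 0.937. *Tsc22d3*, which encodes the leucine zipper protein GILZ, had signals of 8.46, 8.26, 8.56, 8.26, 8.25 and 8.36 against 8.36, 8.32, 8.41, 8.33, 8.71 and 8.49. Its difference was -0.08 ± 0.07 (SE), with an adjusted p of 0.645, and the highest value belonged to *Ppara*+/+ mouse 5. A p above the threshold does not show that either gene was equal in the 2 genotypes.

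*Klf9*, a zinc finger transcription factor induced by glucocorticoids in many tissues, was the gene of the list that differed most. Its signals were 9.28, 8.96, 9.10, 9.08, 8.90 and 8.84 in *Ppara*-/- livers and 9.48, 9.50, 9.57, 9.55, 9.40 and 9.25 in *Ppara*+/+ livers. Mouse 1 was again the *Ppara*-/- liver nearest to the other genotype, just above *Ppara*+/+ mouse 6, and the other 5 were below every *Ppara*+/+ liver. *Klf9* fell by 0.43 ± 0.07 (SE) on the log2 scale, or 1.35-fold, with an adjusted p of 0.00294, and its highest adjusted p with 1 liver left out was 0.0101. Without mouse 1 it fell by 0.48 ± 0.07 (SE), with an adjusted p of 0.000389.

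*Errfi1*, an inhibitor of the epidermal growth factor receptor kinase, had signals of 12.02, 11.55, 11.81, 11.72, 11.58 and 11.53 in *Ppara*-/- livers and of 11.97, 12.06, 12.07, 12.01, 12.02 and 11.88 in *Ppara*+/+ livers. Mouse 1 sat in the middle of the *Ppara*+/+ values, and the 5 others lay below all of them. *Errfi1* fell by 0.29 ± 0.08 (SE), with an adjusted p of 0.0317. Without mouse 1 the fall was 0.36 ± 0.06 (SE), with an adjusted p of 0.00143, whereas leaving out *Ppara*-/- mouse 5 took the adjusted p to 0.0815.

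*Sgk1*, a kinase of ion transport and cell survival named for its induction by serum and glucocorticoids, carried the palindrome printed above. Its signals were 7.66, 7.62, 7.59, 7.59, 7.49 and 7.46 in *Ppara*-/- livers and 7.88, 7.73, 7.92, 7.91, 7.67 and 7.57 in *Ppara*+/+ livers. The difference of -0.21 ± 0.06 (SE) missed the threshold with all livers, at an adjusted p of 0.0624. It passed without *Ppara*-/- mouse 1, at 0.0408, and without *Ppara*+/+ mouse 6, at 0.0151, the *Ppara*+/+ liver with the lowest *Sgk1*.

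*Dusp1*, a phosphatase that switches off MAP kinases and is one of the fast targets of the receptor, went the other way. It had signals of 10.31, 10.48, 10.48, 10.64, 10.30 and 10.35 in *Ppara*-/- livers and of 9.95, 10.25, 10.36, 10.02, 9.97 and 10.23 in *Ppara*+/+ livers. Of the 6 *Ppara*-/- livers 3 were above every *Ppara*+/+ liver, and 3 lay within the upper part of their range. *Dusp1* rose by 0.29 ± 0.08 (SE), with an adjusted p of 0.0398, and the adjusted p ran from 0.022 to 0.0935 as single livers were left out.

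*Zbtb16*, the transcriptional repressor PLZF, and the metallothioneins *Mt1* and *Mt2*, which bind zinc and copper and answer to metals as well as to glucocorticoids, did not pass the test. *Zbtb16* had signals of 8.95, 9.67, 9.84, 9.88, 9.73 and 9.61 in *Ppara*-/- livers and of 9.03, 9.25, 9.11, 9.23, 9.73 and 9.65 in *Ppara*+/+ livers. Its difference was 0.28 ± 0.16 (SE), with an adjusted p of 0.349, and without *Ppara*-/- mouse 1, which had the lowest of the 12 values, it was 0.41 ± 0.12 (SE), with an adjusted p of 0.0385. *Mt1* had signals of 12.61, 12.98, 12.88, 13.01, 12.96 and 12.90 against 12.66, 12.65, 12.71, 12.64, 12.97 and 12.97, a difference of 0.12 ± 0.08 (SE) with an adjusted p of 0.43. In both genes *Ppara*-/- mouse 1 stood with *Ppara*+/+ mice 1 to 4, and *Ppara*+/+ mice 5 and 6 stood with the remaining *Ppara*-/- mice. *Mt2* showed the same arrangement, with signals of 13.13, 13.25, 13.19, 13.28, 13.28 and 13.21 against 13.14, 13.10, 13.08, 13.13, 13.21 and 13.27. Its difference was 0.07 ± 0.05 (SE), with an adjusted p of 0.458.

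**Figure D2:**
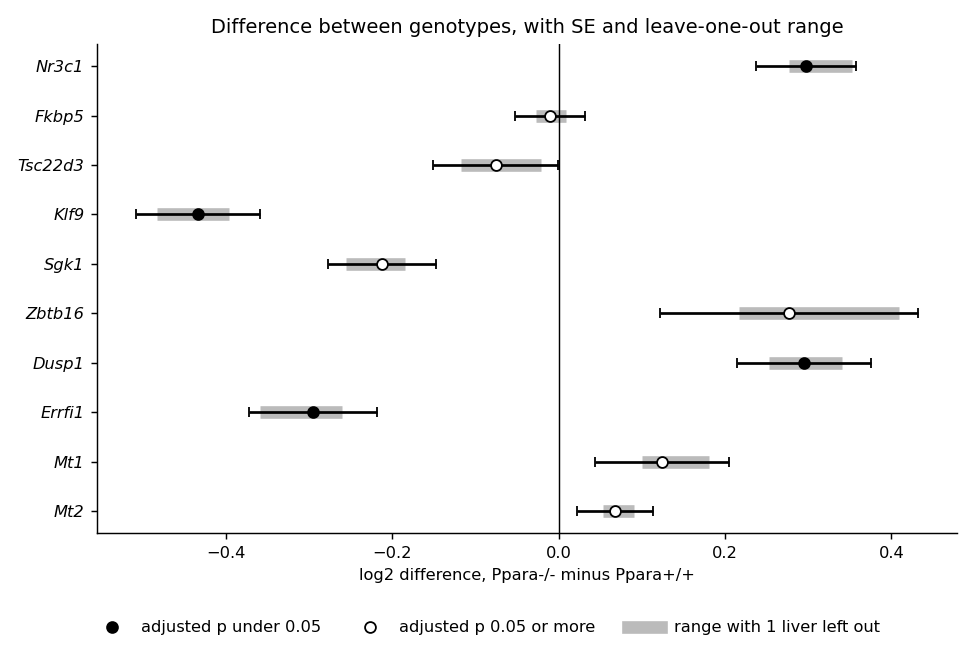
Log2 difference between genotypes (horizontal axis, *Ppara*-/- minus *Ppara*+/+) for each of the 10 genes, with bars for the SE and grey bands for the range of differences when each of the 12 livers was left out. *Nr3c1* (0.30) and *Dusp1* (0.29) lie on the right and *Klf9* (-0.43) and *Errfi1* (-0.29) on the left as filled points, and the widest band is that of *Zbtb16*.

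How the induced genes followed the receptor from liver to liver was examined after each signal had been centred on the mean of its genotype, so that the difference between genotypes could not make a relation. Significance came from an exact permutation of livers inside each genotype (two-sided, 518400 orders), adjusted over all genes. In the 12 livers *Zbtb16* followed *Nr3c1* most closely, with Pearson r = 0.87 (exact permutation p = 0.00105, adjusted 0.256) and Spearman rho = 0.69 (exact permutation p = 0.0279). Only 0.938% of all genes had a higher r. *Mt1* came next at r = 0.75 (exact permutation p = 0.0167, adjusted 0.279) and rho = 0.37 (exact permutation p = 0.274). *Mt2* had r = 0.59 (exact permutation p = 0.0209, adjusted 0.284) and rho = 0.29 (exact permutation p = 0.409). The adjusted p was thus above the threshold for all 9 induced genes, and 0 of the 19937 genes tested (0%) were called, although 2772 had an exact p under 0.05.

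*Klf9* (r = -0.57, exact permutation p = 0.1) and *Errfi1* (r = -0.65, exact permutation p = 0.125) had values below 0, and so had *Sgk1* (r = -0.35, exact permutation p = 0.148). *Fkbp5* (r = -0.15, exact permutation p = 0.765), *Tsc22d3* (r = -0.03, exact permutation p = 0.937) and *Dusp1* (r = 0.32, exact permutation p = 0.289) lay nearer to 0. The rank correlations were rho = -0.11 for *Klf9*, -0.20 for *Errfi1*, -0.26 for *Sgk1*, -0.03 for *Fkbp5*, 0.34 for *Tsc22d3* and 0.46 for *Dusp1*, with exact permutation p-values from 0.17 to 0.964. Over all genes r ranged from -0.60 at the 5th percentile to 0.72 at the 95th, so only *Zbtb16* and *Mt1* lay above that range and only *Errfi1* below it.

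Several of these relations changed with 1 liver. *Ppara*-/- mouse 1 lay 0.28 below the *Nr3c1* mean of its genotype, and *Ppara*+/+ mouse 1, the next farthest, 0.07 below that of its own. Without both, r was 0.68 for *Zbtb16* (exact permutation p = 0.0639), 0.46 for *Mt1* (exact permutation p = 0.269), 0.46 for *Mt2* (exact permutation p = 0.241), 0.02 for *Klf9* (exact permutation p = 0.959) and 0.18 for *Errfi1* (exact permutation p = 0.606). *Klf9* and *Errfi1* thus no longer had values below 0. *Mt1* and *Mt2* kept an r above 0 that no longer had an exact p under 0.05 with 10 livers. *Dusp1* went to -0.03 (exact permutation p = 0.921) and *Tsc22d3* to 0.52 (exact permutation p = 0.171). Inside the *Ppara*+/+ livers alone r was -0.54 for *Klf9* (exact permutation p = 0.271) and -0.47 for *Errfi1* (exact permutation p = 0.381). Inside the *Ppara*-/- livers it was -0.61 (exact permutation p = 0.214) and -0.67 (exact permutation p = 0.163). Without *Ppara*-/- mouse 1 alone *Zbtb16* had r = 0.76 (exact permutation p = 0.0186), *Tsc22d3* 0.53 (exact permutation p = 0.117), *Mt1* 0.54, *Mt2* 0.45, *Errfi1* 0.22, *Dusp1* 0.20 and *Klf9* -0.02.

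**Figure D3:**
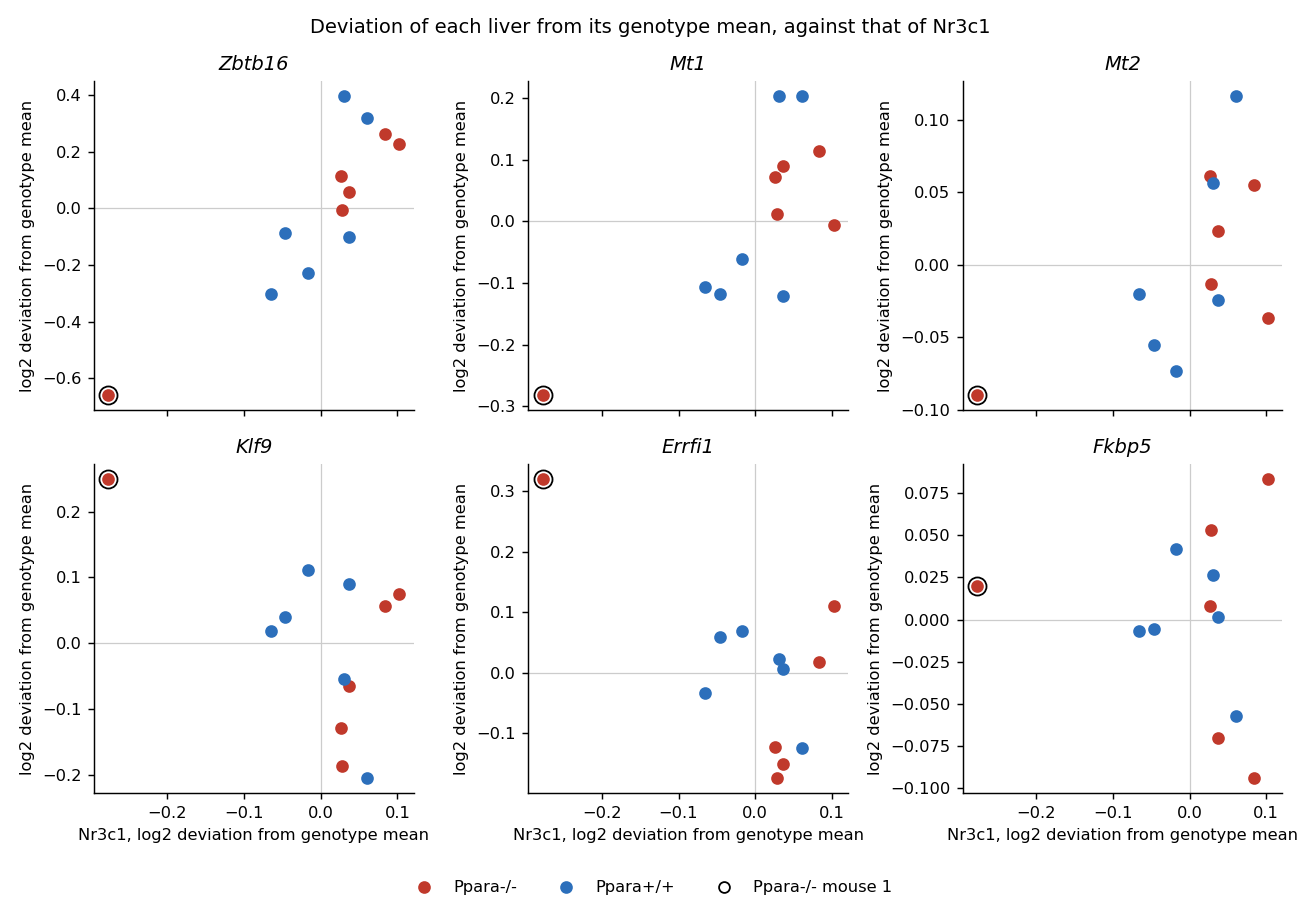
Log2 deviation of each of the 12 livers from its genotype mean for 6 induced genes (vertical axes) against the same deviation of *Nr3c1* (horizontal axis). The ringed *Ppara*-/- mouse 1 lies 0.28 below the mean in *Nr3c1* and far from the other points, at the bottom for *Zbtb16*, *Mt1* and *Mt2* and at the top for *Klf9* and *Errfi1*.

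A limma slope on centred *Nr3c1* beside genotype, which uses the normal model in place of permutation, called *Zbtb16* alone among the 9 induced genes (2.63 ± 0.43 (SE) log2 units per log2 unit of *Nr3c1*, adjusted p = 0.0098), against 1.95% of all genes. With the animal number of the label as a further term the slope was 1.63 ± 0.46 (SE), with an adjusted p of 0.271. The slopes of 0 of the 19937 genes (0%) differed between genotypes by an interaction term in limma, and 1063 had an unadjusted p under 0.05. Inside the genotypes, r for *Zbtb16* was 0.99 in the *Ppara*-/- livers (exact permutation p = 0.0139) and 0.76 in the *Ppara*+/+ livers (exact permutation p = 0.0931). *Ppara* and *Nr3c1* had r = -0.79 in the 6 *Ppara*+/+ livers (exact permutation p = 0.0833) and 0.07 in the *Ppara*-/- livers (exact permutation p = 0.801).

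Named genes whose deviations were most like those of *Nr3c1* over the 12 livers were *Acer2* (r = 0.98), an alkaline ceramidase, *Fnip1* (r = 0.97), a partner of folliculin, *Ero1a* (r = 0.97), an oxidase of the endoplasmic reticulum, *Fnbp1l* (r = 0.97) and *Brcc3* (r = 0.95), a deubiquitinase. Their adjusted exact permutation p was 0.256 each. Without *Ppara*-/- mouse 1 their r lay between 0.77 for *Fnbp1l* and 0.90 for *Acer2*, so this liver raised the likeness of all 5.

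Among themselves the induced genes fell on opposite sides. Of the 45 pairs of the 10 genes, 17 had an exact permutation p under 0.05. The pairs share genes and livers, and with *Nr3c1* alone 2772 of 19937 genes had such a p, so this count is a description. Only 1 pair had an adjusted p under 0.05 over all genes. That pair was *Mt1* and *Mt2*, with r = 0.89 (exact permutation p = 0.00106, adjusted 0.0478), rho = 0.71 (exact permutation p = 0.0202) and r = 0.79 without the 2 livers farthest from the *Mt1* median (exact permutation p = 0.0192). Genes related to *Mt1* at that threshold made up 2.36% of all genes, and to *Mt2* 4.11%. The highest r was that of *Zbtb16* and *Mt1* (r = 0.92, exact permutation p = 0.00536, adjusted 0.143; rho = 0.54, exact permutation p = 0.0961). *Zbtb16* and *Mt2* had r = 0.79 (exact permutation p = 0.00568, adjusted 0.143; rho = 0.54, exact permutation p = 0.0961). Without the 2 livers farthest in *Zbtb16* these were 0.78 (exact permutation p = 0.0965) and 0.72 (exact permutation p = 0.0885). *Klf9* varied with *Errfi1* (r = 0.90, exact permutation p = 0.000517, adjusted 0.177; rho = 0.83, exact permutation p = 0.00385) and with *Sgk1* (r = 0.80, exact permutation p = 0.000266, adjusted 0.283; rho = 0.86, exact permutation p = 0.00222). Without the 2 livers farthest in *Klf9* these were 0.81 (exact permutation p = 0.0273) and 0.71 (exact permutation p = 0.019). Towards the metallothioneins *Klf9* had the opposite sign, with r = -0.75 for *Mt1* (exact permutation p = 0.00866, adjusted 0.19) and -0.75 for *Mt2* (exact permutation p = 0.00613, adjusted 0.175). Both were weaker without the 2 farthest livers, at -0.31 (exact permutation p = 0.283) and -0.39 (exact permutation p = 0.273).

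The arrangement shared by *Zbtb16*, *Mt1* and *Mt2* followed the animal number that the labels give each fetus. The 5 lowest numbers belonged to *Ppara*-/- mouse 1 and *Ppara*+/+ mice 1 to 4, and the 7 highest to *Ppara*-/- mice 2 to 6 and *Ppara*+/+ mice 5 and 6. *Zbtb16* lay between 8.95 and 9.25 in the 5 lower-numbered animals and between 9.61 and 9.88 in the 7 higher-numbered ones. *Mt1* lay between 12.61 and 12.71 against 12.88 to 13.01, and *Mt2* between 13.08 and 13.14 against 13.19 to 13.28. The 2 sets did not overlap for these 3 of the 10 genes, against 6.3% of all genes. Outside the 10 genes, the marker *Dlk1* lay between 10.95 and 11.28 against 11.39 to 11.72, also without overlap. How much of the rise of *Dlk1* between genotypes went with the animal number was not tested. The boundary was set after the values were seen, so it carries no test. The labels do not say whether the animal number marks a litter, a day or an order of work, and the study's methods do not mention it.

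As a continuous term beside genotype in limma, the animal number was related to *Zbtb16*, which rose by 0.49 ± 0.09 (SE) on the log2 scale per 10 numbers (adjusted p = 0.0116), and to *Mt1*, which rose by 0.25 ± 0.05 (SE) (adjusted p = 0.0174). These were 2 of 10 genes, against 2.85% of all genes. *Klf9* (-0.18 ± 0.06 (SE), adjusted p = 0.113), *Sgk1* (-0.16 ± 0.05 (SE), adjusted p = 0.113), *Nr3c1* (0.13 ± 0.05 (SE), adjusted p = 0.206) and *Mt2* (0.10 ± 0.04 (SE), adjusted p = 0.221) did not pass. Without *Ppara*-/- mouse 1 the adjusted p was 0.053 for *Zbtb16* and 0.1 for *Mt1*, and 0.522% of all genes passed. With a sex score (*Xist* against Y-linked genes) as a further term they were 0.0286 and 0.0463. The difference between genotypes kept its call beside the animal number for *Nr3c1* (0.28, adjusted p = 0.00304), *Klf9* (-0.41, adjusted p = 0.000532), *Errfi1* (-0.28, adjusted p = 0.0206) and *Dusp1* (0.29, adjusted p = 0.0421), and *Sgk1* passed (-0.20, adjusted p = 0.0251). With the 6 lowest and 6 highest numbers as a block in place of the number, *Nr3c1* (0.26, adjusted p = 0.0187) and *Klf9* (-0.38, adjusted p = 0.00531) were called. *Errfi1* (-0.26, adjusted p = 0.082), *Dusp1* (0.29, adjusted p = 0.079) and *Sgk1* (-0.15, adjusted p = 0.125) were not. With the animal number and the sex score together *Sgk1* was not called either (-0.18, adjusted p = 0.0679).

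**Figure D4:**
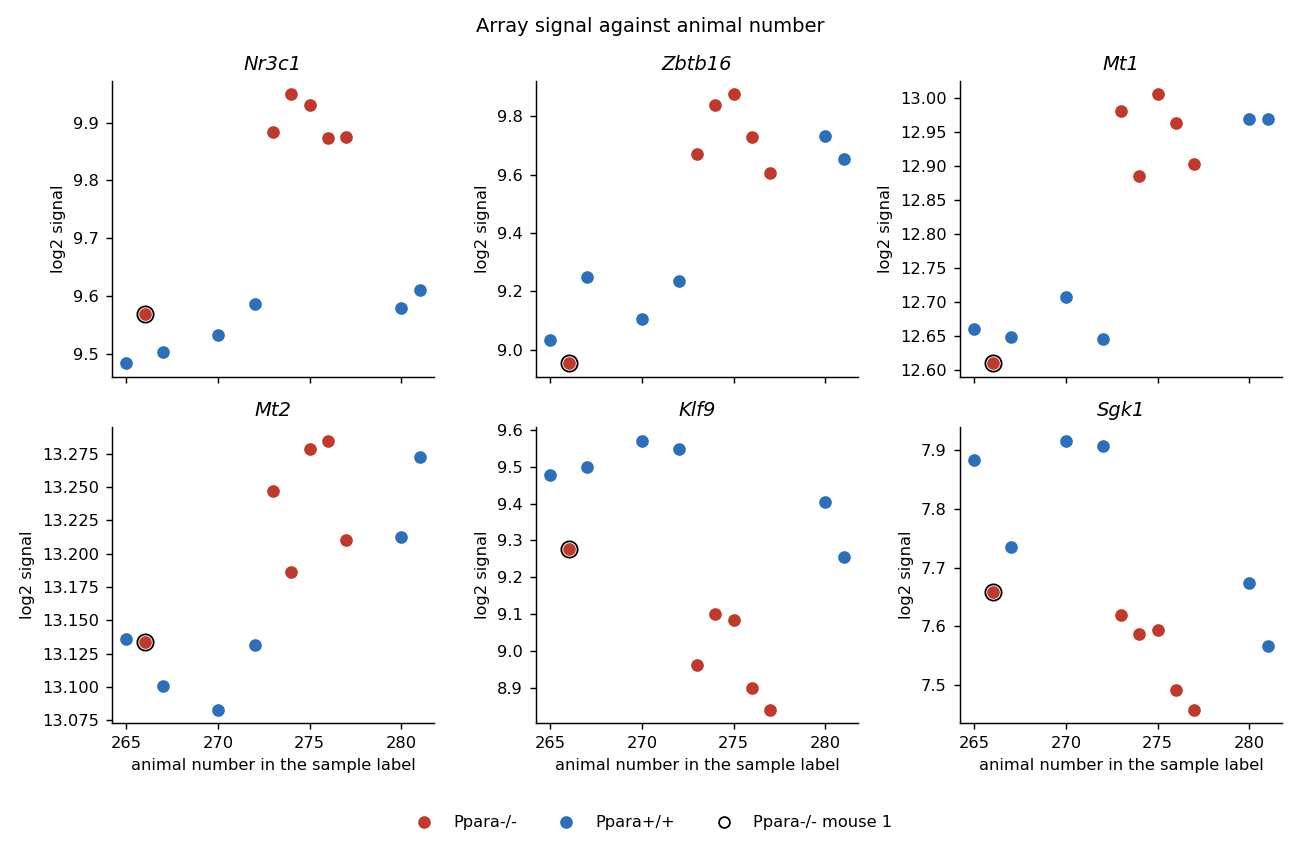
Log2 signal (vertical axes) of *Nr3c1* and 5 induced genes against the animal number in the labels (horizontal axis), coloured by genotype, with *Ppara*-/- mouse 1 ringed. *Zbtb16*, *Mt1* and *Mt2* are low in the 5 lowest-numbered animals and high in the 7 others, while *Nr3c1* stays below 9.62 in all *Ppara*+/+ livers. The ringed mouse 1 is the only *Ppara*-/- liver among the 5.

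The wider pathway was described with 10 lists holding 228 genes, of which 212 were measured. Of these 12 fell and 15 rose, so 12.7% were called against 7.24% of all genes. Their median difference was 0.02, beside 0.01 over all genes, and the medians of single lists ran from -0.18 for the hepatic metabolic genes to 0.09 for the inflammatory genes. Without *Ppara*-/- mouse 1 the count was 71 of 212 (33.5%), 26 lower and 45 higher, beside 12.6% of all genes. Those 71 held all 27 of the genes called with every liver. With any other liver left out, the count ran from 14 to 46. The lists were chosen with earlier results known, and the 16 listed genes with no measured probeset were not analysed here.

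Of 18 genes for hormone supply and receptor chaperones, 2 fell and 16 were not called. *Stip1*, the organizing cochaperone that links heat shock proteins during receptor maturation, fell by 0.18 ± 0.04 (SE), with an adjusted p of 0.0217, and all 6 *Ppara*-/- livers were below all *Ppara*+/+ livers. *Nr3c2*, the mineralocorticoid receptor, which also binds glucocorticoids, fell by 0.29 ± 0.08 (SE), with an adjusted p of 0.0374. Its signal was low, with means of 5.92 in *Ppara*-/- and 6.20 in *Ppara*+/+ livers, at percentile 34.4 of all genes. When *Ppara*-/- mouse 1 was left out, the list had 6 lower and 2 higher. The widest difference of the list was that of *Serpina6*, a hormone supply gene, at 1.43 with all livers (adjusted p = 0.123 in limma). *Serpina6* passed without that liver (adjusted p = 0.0255 in limma). Of 15 measured coregulators 0 passed in limma, although 4 had an unadjusted p under 0.05. The lowest p-values were those of *Hdac2* (-0.17 ± 0.06 (SE), adjusted p = 0.0878) and *Ppargc1a* (0.43 ± 0.15 (SE), adjusted p = 0.0934). Both of these and *Nr0b2*, a repressor of nuclear receptors, passed without *Ppara*-/- mouse 1, at 0.56 ± 0.11 (SE) for *Ppargc1a* (adjusted p = 0.00431), -1.39 ± 0.34 (SE) for *Nr0b2* (adjusted p = 0.0162) and -0.20 ± 0.05 (SE) for *Hdac2* (adjusted p = 0.0237). With all livers *Nr0b2* had a difference of -1.10, the widest of the list.

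Hepatic metabolic targets of glucocorticoids held the widest fall of the lists. Of 24 measured, 5 fell and 1 rose, with a list median of -0.18. *Ppara* was one of the 5, as the deleted gene. *Fgf21*, a fasting hormone that is also a target of PPARα, fell by 1.06 ± 0.21 (SE), with an adjusted p of 0.00698. Its signal was low, with means of 5.65 in *Ppara*-/- and 6.72 in *Ppara*+/+ livers, at percentile 36.2 of all genes. *Angptl4*, an inhibitor of lipoprotein lipase and likewise a target of PPARα, fell by 0.55 ± 0.12 (SE), with an adjusted p of 0.0145. *Hal*, which starts histidine breakdown, rose by 0.93 ± 0.17 (SE), with an adjusted p of 0.00502. The glycerol channel *Aqp9* fell by 0.33, with an adjusted p of 0.0428, and *Tat*, tyrosine aminotransferase and the textbook glucocorticoid-induced liver enzyme, fell by 1.61, with an adjusted p of 0.0305. *Tat* had signals of 11.72, 9.76, 10.37, 9.17, 9.67 and 9.79 in *Ppara*-/- livers and of 12.26, 12.13, 12.10, 12.33, 10.98 and 10.34 in *Ppara*+/+ livers. Its highest *Ppara*-/- value was that of mouse 1, and its lowest *Ppara*+/+ values were those of mice 5 and 6. By animal number *Tat* was thus at 11.72 or above in the 5 lowest-numbered animals and at 10.98 or below in the 7 others. How much of its fall went with the animal number was not tested. Without *Ppara*-/- mouse 1, 10 genes of the list fell and 3 rose.

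Of 36 other widely glucocorticoid-induced genes, 2 fell and 5 rose. *Plin2*, a lipid droplet coat protein and a further PPARα target, fell by 0.61 ± 0.07 (SE), with an adjusted p of 5.1e-05. *Klf15*, a transcription factor of amino acid breakdown, rose by 0.28 ± 0.05 (SE), with an adjusted p of 0.00378. *Rgs2*, a regulator of G protein signalling, rose by 0.44 ± 0.10 (SE), and *Foxo3*, a transcription factor of fasting, by 0.28 ± 0.06 (SE), with adjusted p of 0.0116 and 0.0148. Of 20 inflammatory genes that glucocorticoids repress, 0 passed in limma and 5 had an unadjusted p under 0.05, and 3 had a difference below 0. The smallest p-values were those of the adhesion molecule *Vcam1* (0.23 ± 0.07 (SE), adjusted p = 0.0664) and the chemokine *Ccl2* (0.31 ± 0.10 (SE), adjusted p = 0.0791). Of the 20, 4 passed without *Ppara*-/- mouse 1, all higher, namely *Ccl2* (adjusted p = 0.0201), *Vcam1* (adjusted p = 0.0217) and the chemokines *Cxcl2* (adjusted p = 0.029) and *Ccl3* (adjusted p = 0.0361). The counts of the other widely induced genes were then 2 lower and 12 higher.

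Genes around single members were counted in the same way. Of 18 metal and zinc genes 1 rose, the zinc importer *Slc39a14* (0.27 ± 0.05 (SE), adjusted p = 0.00529), and *Mt1* and *Mt2* had not passed. Of 22 immediate-early genes, the class to which *Dusp1* belongs, *Myc* (0.33 ± 0.08 (SE), adjusted p = 0.0157) and *Maff* (0.76 ± 0.19 (SE), adjusted p = 0.0278) rose and the other 20 were not called. Of 9 ErbB receptors and ligands, *Egfr*, the receptor that *Errfi1* inhibits, fell by 0.30 ± 0.07 (SE), with an adjusted p of 0.0258. The ligand gene *Btc* rose by 0.19 ± 0.05 (SE), with an adjusted p of 0.0312. The signal of *Btc* was low, with means of 6.19 in *Ppara*-/- and 6.00 in *Ppara*+/+ livers, at percentile 34.9 of all genes. Of 13 kinase targets and partners of *Sgk1* and *Dusp1*, 3 rose and 1 fell. *Ndrg1*, a substrate of *Sgk1*, rose by 0.42 ± 0.05 (SE), with an adjusted p of 0.000113. *Map2k6*, a kinase of the p38 branch, rose by 0.39 ± 0.06 (SE), the ubiquitin ligase *Nedd4l*, another *Sgk1* substrate, rose by 0.37 ± 0.07 (SE), and *Mapk9* fell by 0.21 ± 0.05 (SE). The counts without *Ppara*-/- mouse 1 were 4 higher of the metal and zinc genes, 5 higher of the immediate-early genes, 1 lower and 2 higher of the ErbB genes, and 2 lower and 4 higher of the kinase genes.

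Paralogues of the members were mostly not called, with 1 lower and 2 higher of 37. *Sgk2*, a paralogue of *Sgk1*, had signals of 7.27, 6.52, 6.66, 6.63, 6.49 and 6.72 in *Ppara*-/- livers and of 8.33, 8.36, 7.98, 8.20, 7.53 and 7.37 in *Ppara*+/+ livers. The genotypes did not overlap. *Sgk2* fell by 1.25 ± 0.18 (SE), or 2.38-fold, with an adjusted p of 0.000643, beside -0.21 ± 0.06 (SE) for *Sgk1*. *Dusp8* rose by 0.25 ± 0.06 (SE) and *Zbtb20* by 0.21 ± 0.06 (SE), with adjusted p of 0.0308 and 0.0346. Of the 37 paralogues 3 were lower and 8 higher without *Ppara*-/- mouse 1.

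**Figure D5:**
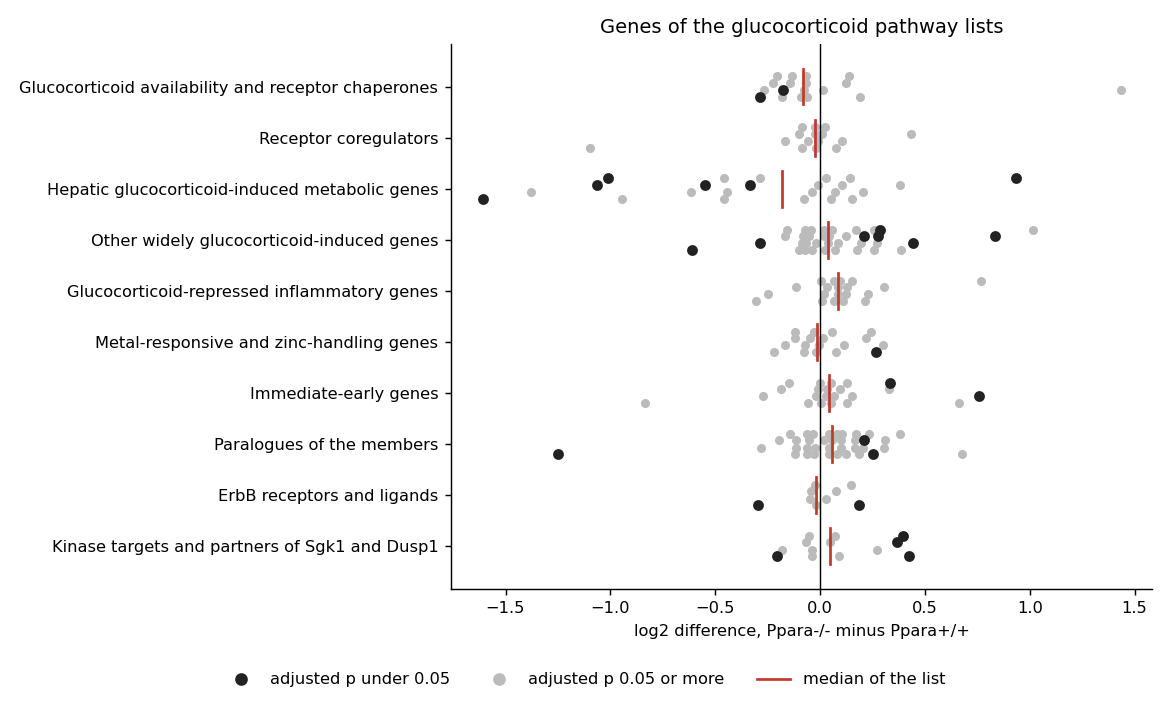
Log2 difference between genotypes (horizontal axis, *Ppara*-/- minus *Ppara*+/+) for each measured gene of the 10 pathway lists (rows, 1 point per gene), dark where the adjusted p was under 0.05, with a vertical line at the median of the list. The hepatic metabolic genes spread from -1.61 to 0.93 around a median of -0.18, and with all 12 livers the inflammatory genes have 0 dark points.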

How the data were processed

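The authors hybridized RNA of 12 whole livers, 1 per Affymetrix Mouse Gene ST array, and deposited log2 values made with RMA, which corrects background, normalizes between arrays and summarises probes. For the RMA version and the build of the probe design, the sources used here name none. Of 35556 probesets 21789 had 1 gene symbol, 1621 several and 12146 none. For each gene the probeset with the highest mean was kept, with no filter on dim signals, leaving 19938 genes. Arrays carry no read depth, so their number limits precision.

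Genotypes were compared with lmFit and eBayes of limma 3.58.1 (R 4.3.3), two-sided, with no covariates and Benjamini-Hochberg adjustment over all genes at 0.05. Relations to *Nr3c1* used exact permutation inside each genotype in Python 3.11.15. The members, lists and tests were chosen with earlier results of these data known. Named genes were all members, *Ppara* and the 5 named genes most like *Nr3c1*. Of each list up to 4 called genes were named, or else up to 2 with the smallest p. Marker genes called, *Tat*, *Aqp9*, *Nr0b2*, *Serpina6*, *Cxcl2*, *Ccl3*, *Clec4g* and *Tek* were added after their values were seen. Alternatives were other normalizations, dim-signal filters at the 25th and 50th percentile, array weights, an exact Mann-Whitney test, covariates and the omission of each liver. Models with an animal number block or the animal number with the sex score, and the animal number beside relations or pathway genes, were added after the data were seen.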

Additional observations from a re-analysis of the deposited data

Results flagged for a closer look

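In *Ppara*-/- mouse 1 a gap to the nearest other liver of its genotype, as a share of the range of the 6, exceeded Dixon's 95% value of 0.625 for 3 of the members, *Nr3c1* (0.8), *Zbtb16* (0.71) and *Mt1* (0.696). The same liver stood apart for *Ppargc1a* (0.781), *Angptl4* (0.696), *Vcam1* (0.663), *Maff* (0.685), *Sgk2* (0.7) and *Zbtb20* (0.827). Its *Nr3c1* signal was 9.57 and the nearest was 9.87, its *Zbtb16* signal 8.95 and the nearest 9.61, and its *Mt1* signal 12.61 and the nearest 12.88. In the other genotype *Nedd4l* in mouse 1 (0.685) and *Mapk9* in mouse 6 (0.7) stood apart. In all 11 values were found in 80 groups of 6 livers (40 genes), and chance flags about 1 in 20 groups; 9 of the 11 were in the same liver.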

How the results depend on the processing

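*Nr3c1* and *Klf9* kept direction and call in 25 of 28 alternatives each. The 3 exceptions were the exact Mann-Whitney test, which called 0 of all genes with 3681 at an unadjusted p under 0.05 (adjusted p = 0.135 and 0.077), and the comparisons within the 6 lowest or 6 highest animal numbers, which in limma called 0 members lower and 0 higher, with 2 and 4 members at an unadjusted p under 0.05. These 2 comparisons were unbalanced. Only mice 1 and 2 of the *Ppara*-/- group were among the 6 lowest, and only *Ppara*+/+ mice 5 and 6 among the 6 highest. On these 6 livers each the differences were 0.20 and 0.31 for *Nr3c1*, -0.41 and -0.35 for *Klf9*, -0.23 and -0.29 for *Errfi1*, and 0.25 and 0.34 for *Dusp1*. *Dusp1* and *Errfi1* lost their call in 14 of 28 each, and *Sgk1* gained it in 7 and *Zbtb16* in 1. No called difference changed sign. Members called lower numbered 1 with the sex score (*Errfi1*: -0.30, adjusted p = 0.0709) and 1 with the animal number block, and members called higher 1 with the erythroid score, the mean of that marker list (*Dusp1*: 0.29, adjusted p = 0.0543) and 1 with the animal number block. With 1 liver left out 1 to 3 members were called lower and 1 to 3 higher. Same-numbered livers share only a number (correlations of their deviations from 0.0194 to 0.39), and a replicate block on it called 3 lower (with *Sgk1*: adjusted p = 0.0248) and 2 higher. Members related to *Nr3c1* numbered 1 by the limma slope, alone, with the sex score or with the erythroid score, and 0 otherwise. Pathway genes called numbered 16 with the sex score, 45 with the animal number and 14 to 71 with 1 liver left out, 46 of them without *Ppara*+/+ mouse 6. The cause of these shifts was not tested. With 6 arrays per genotype, and livers that shared litters, small differences cannot be resolved.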
